A study of Arabidopsis thaliana with 15 samples.

Results

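The 9 genes described here make or regulate indole glucosinolates and camalexin, the tryptophan-derived defence compounds of Arabidopsis thaliana. They were chosen by gene identifier and are 9 of the 33024 genes in the count table. All 9 passed the filter on low counts, which left 20037 genes for testing. They comprise the transcription factor genes MYB34 (AT5G60890), MYB51 (AT1G18570) and MYB122 (AT1G74080). The enzymes are CYP79B2 (AT4G39950), CYP79B3 (AT2G22330), CYP83B1 (AT4G31500), CYP81F2 (AT5G57220), CYP71A13 (AT2G30770) and PAD3 (AT3G26830, listed in the table as CYP71B15). On TAIR10.1 the MYB genes lie at chr5:24494291-24496371 (MYB34), chr1:6389399-6391386 (MYB51) and chr1:27855578-27857598 (MYB122), all on the plus strand. CYP79B2 lies at chr4:18525042-18527602 and CYP79B3 at chr2:9488413-9491404 on the plus strand, and CYP83B1 at chr4:15273410-15275404 on the minus strand. CYP81F2 lies at chr5:23187840-23189902 and PAD3 at chr3:9887917-9889791 on the plus strand, and CYP71A13 at chr2:13109909-13111988 on the minus strand.

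Plants convert tryptophan to indole-3-acetaldoxime through the cytochromes P450 CYP79B2 and CYP79B3. From this oxime, CYP83B1 opens the route to indole glucosinolates, sulfur compounds that myrosinases cleave when tissue is damaged, and CYP81F2 hydroxylates their indole ring. CYP71A13 takes the same oxime towards camalexin, the main phytoalexin of this species, and PAD3 carries out the last steps. MYB34, MYB51 and MYB122 activate the glucosinolate branch, and WRKY33 activates the camalexin genes during infection.

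RNA came from leaves of Columbia-0 plants 21 days after germination, grown in a greenhouse at 23 °C with 16 h of light and 8 h of dark. The 5 genotypes were wild type, the single mutants pp1r3-2 and topp4-1, the septuple topp mutant topp-7m, and pp1r3-2 topp4-1, which carries both single mutations and is called the double mutant here. Each had 3 libraries and none was treated. TOPP genes encode catalytic subunits of type 1 protein phosphatase, and the series names PP1R3 as their regulatory subunit. The title of the series gives the genetic relation of TOPPs and PP1R3 as its question. The labels do not name the 7 genes mutated in topp-7m, the nature of any allele, or whether plants were pooled, and they do not state whether replicate libraries stem from separate growths. The p-values therefore cover library-to-library spread only, possibly a technical one.

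Total counts were 17962200 to 20756997 per library. TOPP4 transcript was 29.4 to 32.9 CPM (read counts scaled to a common library size) in wild type and 5.04 to 5.66 CPM in topp-7m. It was 34.6 to 38.2 CPM in topp4-1 and 27.9 to 33.3 CPM in the double mutant, so its amount does not check those labels, and no gene of the table carries the symbol PP1R3. Wild type replicate 3 stood apart, with 0.0813% of its counts from chloroplast genes, where no other library exceeded 0.0208%. All 6 leaf markers (such as RCA and LHCA1) were detected in every group, and their summed level was 31887 to 41242 CPM in wild type and 20474 to 23423 CPM in topp4-1, where 5 of the 6 fell. Summed over 6 flower markers the level was 0.965 to 1.29 CPM in wild type and 4.95 to 8.28 CPM in topp4-1, and over 4 meristem markers 4.29 to 8.29 CPM and 20.3 to 27.3 CPM, with WUS at 0 in wild type and CLV3 at 0 in topp4-1. Of the flower markers 1, PI, passed the filter on low counts, with a mean of 0.229 CPM in wild type and 5.24 CPM in topp4-1, and the means of the other 5 were at most 0.471 CPM in both. Root markers summed to 104 to 293 CPM in wild type and 230 to 261 CPM in topp4-1, with EXPA7 at 0 in both. Guard cell markers summed to 32.5 to 44.2 CPM in wild type and 24.0 to 26.5 CPM in topp4-1. In the other 3 mutants leaf markers summed to 32813 to 48435 CPM, flower markers to 0.728 to 2.82 CPM and meristem markers to 0.395 to 20.4 CPM. The part of these shifts in the results below was not tested, and in whole leaves fewer cells of a type and less RNA per cell cannot be told apart.

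Promoter sequence is shown first for the oxime-forming enzymes and CYP83B1, because these are the members of the 9 whose 250 bases before the annotated gene start hold an AC element, the kind of site that plant MYB factors of this family can bind. The search used the letters ACCAAC and ACCTAC on both strands, which 15.4% of 27443 nuclear protein-coding promoters of the same length hold. Sequences are from the RefSeq TAIR10.1 assembly, written in the direction of the gene, with matches in capitals.
CYP79B2, chr4:18524792-18525041, plus strand: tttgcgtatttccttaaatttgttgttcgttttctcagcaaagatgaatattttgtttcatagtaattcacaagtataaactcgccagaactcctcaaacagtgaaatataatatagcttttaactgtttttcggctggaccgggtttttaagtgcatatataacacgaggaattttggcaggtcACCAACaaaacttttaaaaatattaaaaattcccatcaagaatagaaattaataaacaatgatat
CYP79B3, chr2:9488163-9488412, plus strand: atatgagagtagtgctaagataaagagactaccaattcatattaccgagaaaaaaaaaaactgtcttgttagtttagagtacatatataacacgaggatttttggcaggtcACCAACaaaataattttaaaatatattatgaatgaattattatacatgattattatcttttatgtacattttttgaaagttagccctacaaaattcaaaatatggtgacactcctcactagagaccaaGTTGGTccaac
CYP83B1, chr4:15275405-15275654, minus strand: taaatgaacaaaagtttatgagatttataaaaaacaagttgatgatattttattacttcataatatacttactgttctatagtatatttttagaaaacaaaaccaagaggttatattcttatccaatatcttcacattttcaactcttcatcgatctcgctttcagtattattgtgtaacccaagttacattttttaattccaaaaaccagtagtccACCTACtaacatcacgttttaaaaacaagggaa
The CYP79B2 match lay 65 to 60 bases before the gene start. CYP79B3 had one match 139 to 134 bases before the start and a second, on the opposite strand, 11 to 6 bases before it. The match of CYP83B1 was 33 to 28 bases before the start. CYP79B2 and CYP79B3 also shared a run of 22 identical bases that contains the ACCAAC match, located 77 to 56 and 151 to 130 bases before their starts. W boxes, the core sites of WRKY factors (TTGACC or TTGACT, both strands), occurred 2 times in the CYP81F2 window and in no other window of the 9, against 28.4% of all promoters. The annotated CYP71A13 gene begins at its first coding base, so its window would include any untranslated leader and reach less far upstream. G boxes (CACGTG), present in 6.49% of all promoters, were in none of the 9. A match describes these letters only, and none of the windows was tested for binding.

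CYP71A13 and its neighbour CYP71A12, which can make the same nitrile from the oxime, lie in a row on chromosome 2 and are similar enough that some reads may be shared. Their first 120 coding bases are given because the 13 differences, in capitals, show how far the pair can be told apart by sequence.
CYP71A12, chr2:13101252-13101371, minus strand: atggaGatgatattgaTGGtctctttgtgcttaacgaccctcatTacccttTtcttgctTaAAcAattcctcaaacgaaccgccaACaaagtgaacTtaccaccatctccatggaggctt
CYP71A13, chr2:13111869-13111988, minus strand: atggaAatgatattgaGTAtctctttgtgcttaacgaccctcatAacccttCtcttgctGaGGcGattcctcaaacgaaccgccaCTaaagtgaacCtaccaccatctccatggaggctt
Over the whole coding sequence the pair was 90.4% identical, the longest identical run was 59 bases, and of 1395 windows of 100 bases 0 were identical. Each window held at least 4 differences. CYP79B2 and CYP79B3 were 78.2% identical, with a longest identical run of 32 bases and 0 identical windows of 1654. How the authors treated reads that fit several genes is not given in the sources used here, so single members of the CYP71A pair are less certain than those of the CYP79B pair. CYP71A13 also overlaps the opposite-strand gene AT2G30766 by 572 bases, a gene with 28 to 102 counts per library against 194 to 1056 for CYP71A13, and without a stated strand setting those reads cannot be told apart. No other gene of the 9 overlaps an annotated gene.

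Per kilobase of gene model, wild-type levels spanned from 280 ± 43.1 CPM per kilobase for CYP83B1 (SD, n = 3) to 1.66 ± 0.247 for MYB122. PAD3 came next at 114 ± 9.51, ahead of CYP79B2 at 54.7 ± 11.6. MYB51 (36.4 ± 6.82), CYP71A13 (33.6 ± 4.42), CYP79B3 (25.9 ± 10.1) and CYP81F2 (18.8 ± 4.29) followed, each with libraries that overlapped those of its neighbour in this order. MYB34 stood below them at 6.26 ± 1.66 CPM per kilobase, without overlap with MYB122. By mean, CYP83B1 was first and PAD3 second in all 5 genotypes, with PAD3 and MYB51 overlapping in pp1r3-2. MYB122 was last in every genotype but topp4-1, where it stood at 4.57 ± 0.569 CPM per kilobase above MYB34 at 1.21 ± 0.459, with no overlap. In pp1r3-2, topp-7m and the double mutant MYB34 and MYB122 overlapped.

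**Figure D1:**
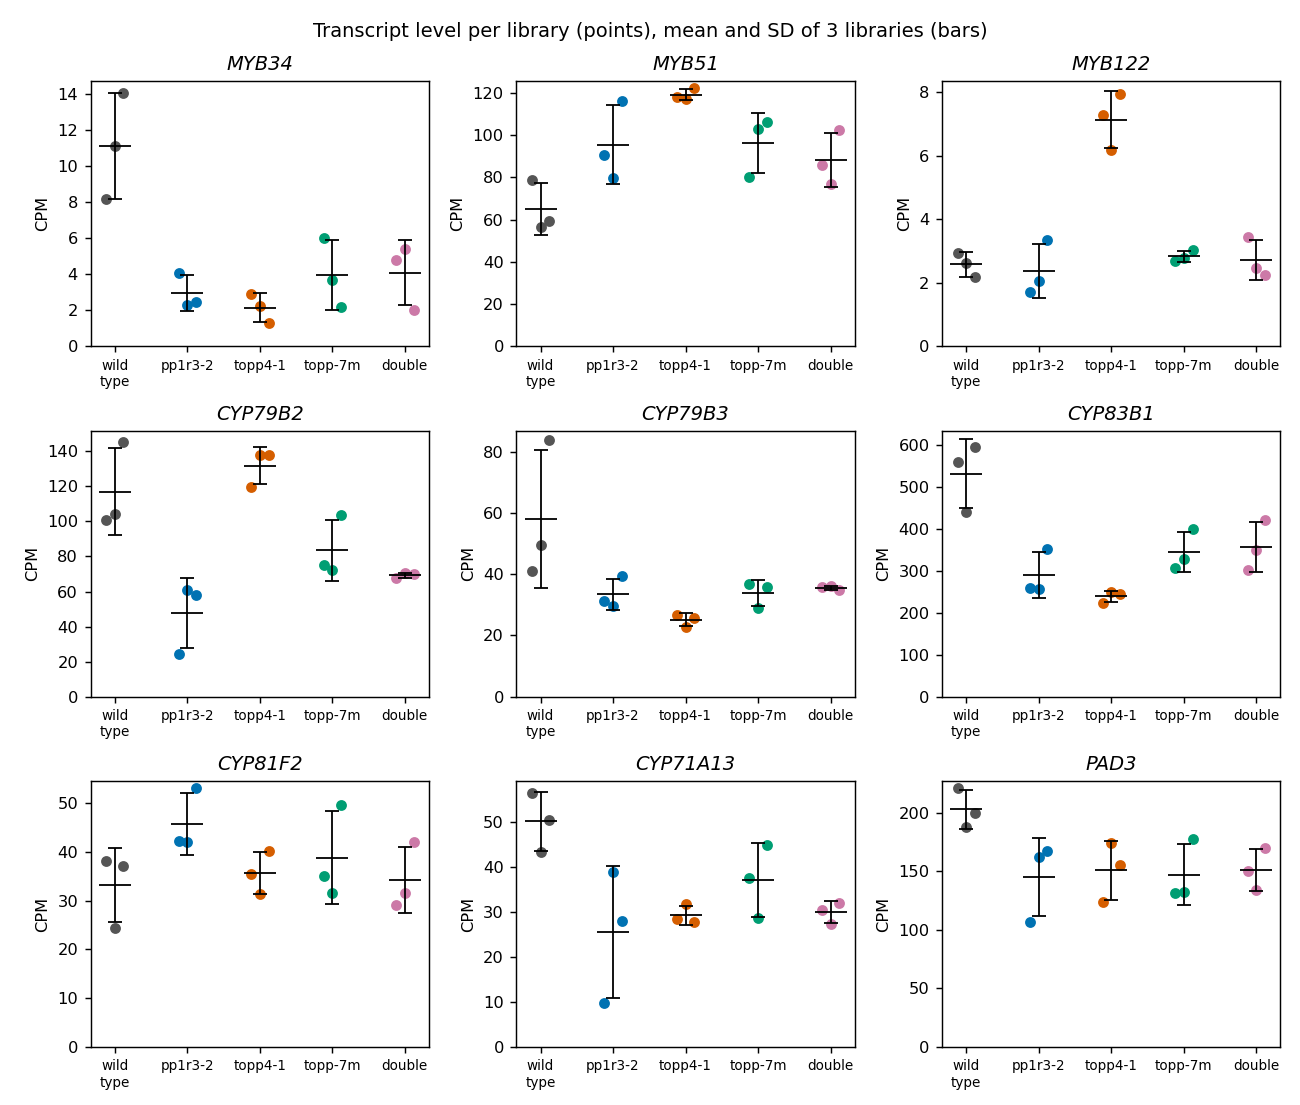
Level of each of the 9 genes in CPM (y axis, from 0) in the 15 libraries, by genotype (x axis); points are libraries and bars give the mean and SD of 3. MYB34 and CYP83B1 libraries of every mutant lie below all wild-type libraries, and the topp4-1 libraries of MYB122, at 6.19 to 7.96 CPM, lie above its 12 other libraries.

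Against wild type, MYB34, CYP79B3 and CYP83B1 fell in each of the 4 mutants, while MYB51 rose in the 3 mutants other than the double mutant. Calls used edgeR's quasi-likelihood test with an adjusted p under 0.05 over all genes tested. In pp1r3-2, 5 of the 9 genes changed (1 higher, 4 lower), where 19.3% of all genes tested were called (10.9% higher, 8.33% lower). In topp4-1, 6 of the 9 changed (2 higher, 4 lower), where 53.5% of all genes were called (27% higher, 26.5% lower), a background at which such a count says little about the 9 genes as a group. In topp-7m, 4 of the 9 changed (1 higher, 3 lower) beside 11.6% of all genes (6.18% higher, 5.46% lower). In the double mutant, 3 of the 9 fell and 0 rose, beside 13.1% of all genes (7.66% higher, 5.47% lower). The median log2 change of the 9 genes was -0.80 in pp1r3-2, -0.43 in topp4-1, -0.46 in topp-7m and -0.57 in the double mutant, with medians over all genes between -0.0043 and 0.0067. Leaving out wild type replicate 3 gave 4, 5, 0 and 0 members called in these lines. The 4 comparisons share the same wild-type libraries, so they are not independent of each other.

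MYB34, known as a regulator of indole glucosinolate synthesis with a large role in roots, had the lowest log2 estimate of the 9 genes in each mutant. Wild-type libraries held 8.20, 11.1 and 14.1 CPM. The level was 4.10, 2.29 and 2.49 CPM in pp1r3-2 and 2.90, 2.27 and 1.28 CPM in topp4-1. It was 6.03, 3.67 and 2.20 CPM in topp-7m and 4.80, 5.41 and 2.03 CPM in the double mutant. All 12 mutant libraries were below all wild-type libraries, and among the mutants topp-7m and the double mutant had the largest SDs. The log2 change was -2.38 ± 0.42 (SE) in topp4-1 (adjusted p = 0.000269) and -1.90 ± 0.41 in pp1r3-2 (0.00494). It was -1.49 ± 0.40 in topp-7m (0.0263) and -1.44 ± 0.40 in the double mutant (0.028). The topp-7m call was lost without wild type replicate 2 (0.066) or 3 (0.104), or topp-7m replicate 2 (0.0878) or 3 (0.105), and that of the double mutant without wild type replicate 2 (0.0719) or 3 (0.114), or double mutant replicate 3 (0.0963).

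MYB51, the main activator of indole glucosinolate synthesis in shoots, moved the other way. Its wild-type libraries held 78.9, 56.6 and 59.4 CPM. In topp4-1 they held 118, 117 and 122 CPM, the tightest of the 5 groups. The level was 90.4, 79.7 and 116 CPM in pp1r3-2 and 80.0, 103 and 106 CPM in topp-7m, both above wild type without overlap but with wild type replicate 1 close to their lowest libraries. The double mutant, at 85.8, 76.7 and 102 CPM, overlapped wild type. MYB51 rose by 0.87 ± 0.16 on the log2 scale in topp4-1 (adjusted p = 0.000283), 0.55 ± 0.16 in pp1r3-2 (0.0229) and 0.57 ± 0.16 in topp-7m (0.0292). The change in the double mutant was 0.44 ± 0.16 (0.078). The pp1r3-2 call was lost without wild type replicate 2 (0.101) or 3 (0.0935) or pp1r3-2 replicate 3 (0.121). It was also lost when only the libraries compared were fitted (0.0509). The topp-7m call was lost without wild type replicate 2 (0.121) or 3 (0.112), or topp-7m replicate 2 (0.0967) or 3 (0.115), and the double mutant was called without wild type replicate 1 (0.59, adjusted p = 0.0172).

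MYB122, which acts beside the other MYB factors at a low transcript level, rose in topp4-1. Wild type held 2.95, 2.63 and 2.18 CPM and topp4-1 held 7.27, 6.19 and 7.96 CPM, with no overlap. The other mutants held 1.72 to 3.43 CPM and overlapped wild type. The log2 change in topp4-1 was 1.46 ± 0.24 (adjusted p = 0.000123), a level 2.76 times that of wild type. In pp1r3-2, topp-7m and the double mutant the change was -0.12 ± 0.25, 0.13 ± 0.25 and 0.07 ± 0.25, with adjusted p of 0.78 or more.

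As a share of the summed level of the 3 MYB genes per kilobase, MYB34 made up 14.5 ± 4.88% in wild type (SD, n = 3). That share was 3.01 ± 1.14% in pp1r3-2, 1.68 ± 0.65% in topp4-1, 4.04 ± 2.48% in topp-7m and 4.47 ± 2.31% in the double mutant. MYB51 made up 81.8 ± 4.78% in wild type and between 92.0% and 94.3% on average in the mutants. MYB122 made up 3.75% in wild type and 6.30 ± 0.641% in topp4-1. No test was run on these shares.

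CYP79B2 and CYP79B3, the paired enzymes that form the oxime, both fell in pp1r3-2, and in topp4-1 CYP79B3 fell while CYP79B2 was not called. CYP79B2 held 101, 104 and 146 CPM in wild type and 24.6, 60.9 and 57.8 CPM in pp1r3-2. It held 119, 138 and 138 CPM in topp4-1, within the wild-type range. It held 75.0, 72.1 and 104 CPM in topp-7m, where the highest library overlapped wild type, and 67.6, 70.4 and 69.7 CPM in the double mutant, below all wild-type libraries. CYP79B2 fell in pp1r3-2 by 1.29 ± 0.27 on the log2 scale (adjusted p = 0.00467). The change was 0.17 ± 0.26 in topp4-1 (0.599), -0.48 ± 0.26 in topp-7m (0.266) and -0.76 ± 0.26 in the double mutant (0.0759). Replicate 1 of pp1r3-2 was the lowest library of all 15 for CYP79B2, CYP71A13 and PAD3, and the CYP79B2 change without it was -0.998 (0.00131). When only the libraries compared were fitted, the pp1r3-2 call was lost (0.0659) and the double mutant was called (0.0205), as it was with DESeq2 (0.0188). The double mutant was also called with replicate number added to the fit as a block (0.0428).

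CYP79B3 held 40.9, 49.6 and 83.6 CPM in wild type, of which replicate 3 was far the highest. The level was 31.3, 29.7 and 39.2 CPM in pp1r3-2 and 26.7, 22.7 and 25.7 CPM in topp4-1. It was 36.6, 28.8 and 35.9 CPM in topp-7m and 35.9, 36.0 and 34.8 CPM in the double mutant. Every mutant library was below every wild-type library, and topp4-1 was the lowest group. CYP79B3 fell by 1.21 ± 0.20 on the log2 scale in topp4-1 (adjusted p = 0.000185), by 0.80 ± 0.20 in pp1r3-2 (0.0133), by 0.78 ± 0.20 in topp-7m (0.0215) and by 0.71 ± 0.20 in the double mutant (0.032). Without wild type replicate 3 the changes were -0.87 (0.000102), -0.45 (0.0403), -0.43 (0.0682) and -0.36 (0.122), so the calls in topp-7m and the double mutant were lost without that library. Calls were also lost in pp1r3-2 without its replicate 2 (0.0506), in topp-7m without its replicate 2 (0.09) or 3 (0.0561), and in the double mutant without its replicate 1 (0.0673), 2 (0.0751) or 3 (0.111). Fitting only the libraries compared also ended the calls in pp1r3-2 (0.0858), topp-7m (0.118) and the double mutant (0.132).

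CYP79B2 made up 68.5 ± 3.77% of the pair's level per kilobase in wild type (64.6% to 72.1%) and 84.6 ± 2.03% in topp4-1 (82.4% to 86.4%), with no overlap. The share was 58.0 ± 11.8% in pp1r3-2, 71.9 ± 3.49% in topp-7m and 67.1 ± 0.688% in the double mutant, all overlapping wild type. A two-sided exact permutation test gave p = 0.1 for topp4-1, the smallest that 3 against 3 libraries allow, and 0.2, 0.4 and 0.7 for the other lines. The summed level of the pair was 80.6 ± 21.6 CPM per kilobase in wild type, 72.9 ± 4.40 in topp4-1, 54.2 ± 9.26 in topp-7m, 48.3 ± 0.679 in the double mutant and 37.3 ± 10.3 in pp1r3-2.

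CYP83B1, which oxidizes the oxime and commits it to glucosinolates, was the most abundant of the 9 transcripts. Wild type held 560, 440 and 597 CPM. The level was 259, 257 and 353 CPM in pp1r3-2 and 225, 249 and 244 CPM in topp4-1. It was 306, 329 and 400 CPM in topp-7m and 301, 350 and 422 CPM in the double mutant. No mutant library reached the lowest wild-type library. CYP83B1 fell by 1.15 ± 0.16 on the log2 scale in topp4-1 (adjusted p = 2.22e-05), by 0.88 ± 0.16 in pp1r3-2 (0.00126), by 0.63 ± 0.16 in topp-7m (0.0173) and by 0.57 ± 0.16 in the double mutant (0.0249). The topp-7m call was lost without wild type replicate 3 (0.0686) or topp-7m replicate 1 (0.0624) or 2 (0.0669). In the double mutant CYP83B1 missed the threshold without wild type replicate 3 (0.0916) or its own replicate 1 (0.0822) or 2 (0.0711). It also missed it when only the libraries compared were fitted (0.0762).

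CYP81F2, which adds a hydroxyl group to the indole ring and is needed for the defence use of these glucosinolates, passed the threshold in no comparison of the main fit. With replicate number added to the fit as a block, it was called in pp1r3-2 (0.47, adjusted p = 0.0136) and in the interaction (-0.53, 0.0219). Wild type held 38.1, 24.5 and 37.1 CPM and pp1r3-2 held 42.2, 41.9 and 53.0 CPM. The other mutants held 29.1 to 49.7 CPM. The pp1r3-2 libraries lay above wild type without overlap, yet the log2 change of 0.46 ± 0.20 missed the threshold (adjusted p = 0.121). In topp4-1, topp-7m and the double mutant the changes were 0.10 ± 0.20 (0.682), 0.23 ± 0.20 (0.523) and 0.04 ± 0.20 (0.911).

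Of the camalexin enzymes, CYP71A13 passed no threshold and PAD3 passed it in topp4-1. CYP71A13 held 56.6, 43.4 and 50.5 CPM in wild type. It held 9.82, 38.8 and 28.0 CPM in pp1r3-2, 28.4, 31.7 and 27.8 CPM in topp4-1 and 30.5, 27.3 and 32.1 CPM in the double mutant, all below wild type. The topp-7m libraries, at 37.7, 28.7 and 45.0 CPM, overlapped wild type. The log2 change was -0.98 ± 0.34 in pp1r3-2 (adjusted p = 0.0638), -0.78 ± 0.34 in topp4-1 (0.0693), -0.43 ± 0.33 in topp-7m (0.462) and -0.74 ± 0.34 in the double mutant (0.171). In pp1r3-2 it was called without replicate 1 (-0.61, 0.0307) or 2 (-1.41, 0.0121) of that line and with DESeq2 (0.0408). When only the compared libraries were fitted it was called in topp4-1 (0.000119) and in the double mutant (0.011).

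PAD3, the cytochrome P450 that completes camalexin, held 221, 188 and 200 CPM in wild type. It held 107, 162 and 167 CPM in pp1r3-2, 124, 174 and 155 CPM in topp4-1, 131, 132 and 177 CPM in topp-7m and 150, 134 and 170 CPM in the double mutant. All 12 mutant libraries lay below the 3 wild-type libraries, while the 4 mutants overlapped one another. PAD3 fell in topp4-1 by 0.43 ± 0.17 on the log2 scale (adjusted p = 0.0482). The changes were -0.48 ± 0.17 in pp1r3-2 (0.0626), -0.46 ± 0.17 in topp-7m (0.097) and -0.42 ± 0.17 in the double mutant (0.12), of like size and not past the threshold. PAD3 was no longer called in topp4-1 when wild type replicate 1 (0.101), 2 (0.0575) or 3 (0.0705) or topp4-1 replicate 1 (0.157) or 3 (0.0686) was left out. The pp1r3-2 change was called without pp1r3-2 replicate 3 (-0.60, 0.0476), with DESeq2 (0.0279), with a filter of 1 CPM in 3 libraries (0.0463) and with the replicate block (0.0347).

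**Figure D2:**
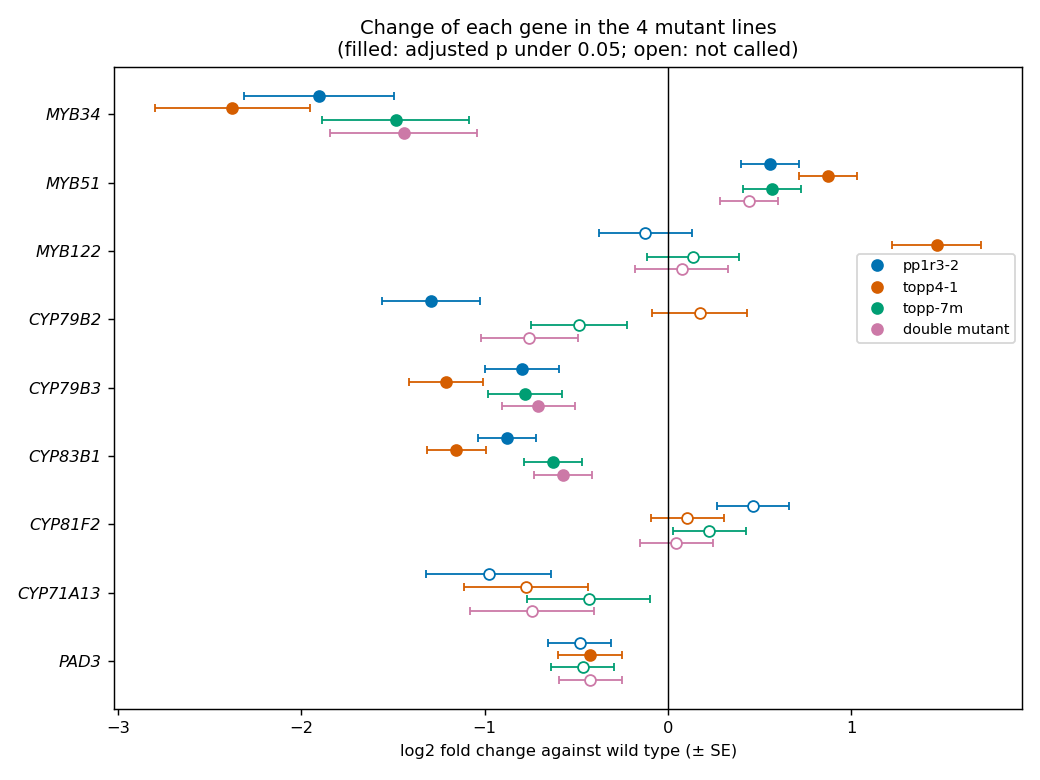
Log2 fold change against wild type with its SE (x axis) for the 9 genes (y axis) in the 4 mutant lines. MYB34 has the lowest estimate of the 9 in each line, from -2.38 in topp4-1 to -1.44 in the double mutant, and MYB51 is above 0 in all 4.

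CYP71A12 rose in topp4-1, where CYP71A13 was the lower of the pair. It held 45.8, 45.2 and 31.0 CPM in wild type and 73.0, 69.0 and 100 CPM in topp4-1, a change of 0.99 ± 0.25 (adjusted p = 0.00444). The change was 0.01 ± 0.25 in pp1r3-2 (0.98), 0.70 ± 0.25 in topp-7m (0.0904) and 0.02 ± 0.25 in the double mutant (0.965). CYP71A13 made up 55.4 ± 6.49% of the pair per kilobase in wild type (49.0% to 62.0%). It made up 27.1 ± 4.98% in topp4-1, 35.9 ± 3.00% in topp-7m, 36.2 ± 9.99% in pp1r3-2 and 42.3 ± 4.46% in the double mutant, and every mutant library was below the wild-type range. Each line gave p = 0.1 in a two-sided exact permutation test against wild type, the smallest that 3 against 3 libraries allow. The summed level of the pair was 60.8 ± 7.10 CPM per kilobase in wild type, 73.7 ± 10.4 in topp4-1 and 44.6 ± 17.8 in pp1r3-2.

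**Figure D3:**
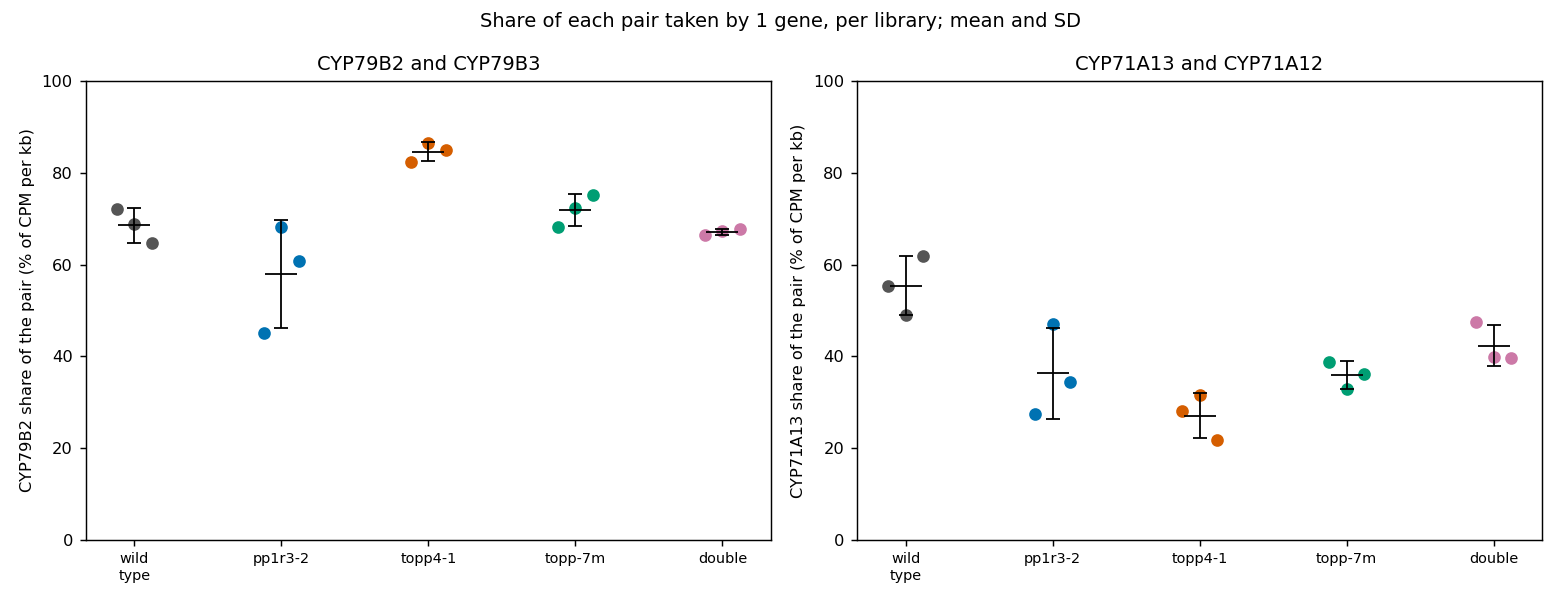
Percentage of the pair's summed CPM per kilobase taken by CYP79B2 (left) and by CYP71A13 (right) in each library, by genotype; bars give the mean and SD of 3. The topp4-1 libraries are the highest on the left, at 82.4% to 86.4%, and on the right every mutant library is below the lowest wild-type library at 49.0%.

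The comparison of the double mutant with topp4-1 asks what pp1r3-2 changes when topp4-1 is present. MYB122 was lower again in the double mutant, and CYP83B1 was higher. Of the 9 genes 4 changed (1 higher, 3 lower), beside 43.3% of all genes tested (21.4% higher, 21.9% lower). The MYB122 level of 3.43, 2.47 and 2.26 CPM lay below all topp4-1 libraries, a change of -1.39 ± 0.24 (adjusted p = 0.000261). CYP79B2 was also lower, with a change of -0.93 ± 0.26 (0.0117), and MYB51 was lower, with a change of -0.43 ± 0.16 (0.0358). CYP83B1 was higher by 0.58 ± 0.16 (0.0076). MYB34 and CYP79B3 had estimates of 0.93 ± 0.43 (0.0926) and 0.50 ± 0.20 (0.0588), and those of CYP81F2, CYP71A13 and PAD3 were between -0.06 and 0.03. The MYB51 call was lost without topp4-1 replicate 1 (0.0812), 2 (0.0619) or 3 (0.0911), or double mutant replicate 1 (0.0966) or 2 (0.143). MYB34 was called without double mutant replicate 3 (1.26, 0.0195). CYP79B3, whose libraries did not overlap, was called when only the libraries compared were fitted (0.00142), with DESeq2 (0.0335) and with the replicate block (0.0312).

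Between the double mutant and pp1r3-2, 0 of the 9 genes passed the threshold with edgeR's quasi-likelihood test, beside 0.0349% of all genes tested, all of them lower (0% higher). There were also 0 at an unadjusted p under 0.05 and 0 with DESeq2. The log2 estimates ran from -0.42 ± 0.20 for CYP81F2 to 0.54 ± 0.26 for CYP79B2, whose double mutant libraries lay above all pp1r3-2 libraries (adjusted p = 0.742). The adjusted p was 0.732 or more for all 9, which does not show that the lines have the same levels.

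The interaction term compares the effect of topp4-1 in pp1r3-2 plants with its effect in otherwise wild-type plants. It was called for 5 of the 9 genes (3 higher, 2 lower), beside 38.3% of all genes tested (19% higher, 19.3% lower). MYB34 changed by -2.38 ± 0.42 where topp4-1 was the only mutation and by 0.46 ± 0.42 when it was added to pp1r3-2, a difference of 2.84 ± 0.59 (edgeR, adjusted p = 0.00167). The same contrast gave 1.46 ± 0.22 for CYP83B1 (0.000126) and 1.3 ± 0.29 for CYP79B3 (0.00257). For the genes that topp4-1 raised it was -0.99 ± 0.22 for MYB51 (0.00268) and -1.27 ± 0.35 for MYB122 (0.00997). It was 0.37 ± 0.37 for CYP79B2 (0.467), -0.52 ± 0.28 for CYP81F2 (0.158), 1.01 ± 0.48 for CYP71A13 (0.118) and 0.49 ± 0.24 for PAD3 (0.13). CYP71A13 was called without pp1r3-2 replicate 1 (0.65, 0.0404) or 2 (1.45, 0.0195).

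**Figure D4:**
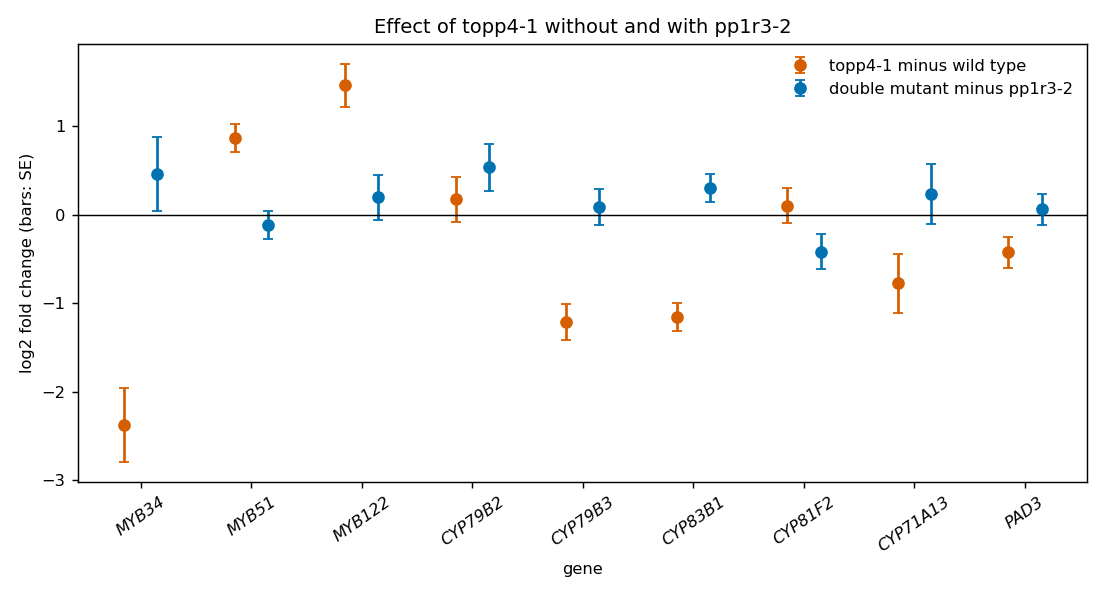
Log2 change with its SE (y axis) that goes with topp4-1 for each of the 9 genes (x axis), in otherwise wild-type plants (orange) and in pp1r3-2 plants (blue). The blue points lie between -0.42 and 0.54, while the orange points span from -2.38 for MYB34 to 1.46 for MYB122.

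In topp-7m compared with topp4-1, 2 of the 9 genes changed (1 higher, 1 lower), beside 37.8% of all genes tested (19.3% higher, 18.5% lower). MYB122 was lower in topp-7m by a log2 change of -1.33 ± 0.24 (adjusted p = 0.000541), and CYP83B1 was higher by 0.53 ± 0.16 (0.0155). The CYP83B1 call was lost without topp4-1 replicate 1 (0.0513) or topp-7m replicate 3 (0.0681). Without topp-7m replicate 3 MYB34 (1.18, 0.0435) and CYP79B2 (-0.84, 0.0407) were called. CYP79B2, MYB51 and CYP79B3 had libraries that did not overlap and estimates of -0.66 ± 0.26 (0.0631), -0.31 ± 0.16 (0.136) and 0.43 ± 0.20 (0.111). Each was called when only the libraries compared were fitted, with adjusted p of 0.00309, 0.0422 and 0.00755. CYP79B2 was also called with DESeq2 (0.0264) and with the replicate block (0.0284).

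Genes of the surrounding pathway were followed in 6 lists of 48 genes, of which 45 were tested. Tryptophan synthesis, which supplies the precursor, had genes that fell in each mutant. Of its 11 genes 8 fell in pp1r3-2, 9 in topp4-1, 5 in topp-7m and 7 in the double mutant, and none rose. The shares of all genes tested that fell were 8.33%, 26.5%, 5.46% and 5.47% in the same order. The median log2 changes of the list were -0.52, -0.62, -0.33 and -0.54. PAI2, an isomerase of the tryptophan route with near copies PAI1 and PAI3 that make its own count uncertain, went from 12.8 ± 2.34 CPM in wild type to 3.14 ± 0.857 CPM in topp4-1. Its changes were -2.02 ± 0.26 in topp4-1 (adjusted p = 1.15e-05) and -1.14 ± 0.25 in topp-7m (0.00758). Compared with topp4-1, 2 of the 11 genes were higher in the double mutant, beside 21.4% of all genes, and none was lower, beside 21.9%. Leaving out wild type replicate 3 gave counts of 8, 8, 4 and 7 genes against wild type.

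The later enzymes of the glucosinolate core, which follow CYP83B1, moved in the same direction as it did. All 6 fell in pp1r3-2 and in topp4-1, 3 fell in topp-7m and 4 in the double mutant, with medians of -0.79, -1.14, -0.51 and -0.72. Of all genes tested, 8.33% fell in pp1r3-2, 26.5% in topp4-1, 5.46% in topp-7m and 5.47% in the double mutant. SOT16, a sulfotransferase that finishes the core, held 107, 113 and 170 CPM in wild type and 50.1, 52.8 and 51.9 CPM in topp4-1, a change of -1.33 ± 0.15 (adjusted p = 2.8e-06). GGP1, a peptidase that processes the glutathione conjugate, went from 277 ± 67.8 to 99.1 ± 8.03 CPM, a change of -1.48 ± 0.15 (1.35e-06). GSTF10, a glutathione transferase with the near copy GSTF9, went from 872 ± 141 to 309 ± 30.0 CPM, a change of -1.50 ± 0.13 (2.46e-07). Compared with topp4-1, 4 of the 6 genes were higher in the double mutant, beside 21.4% of all genes. The interaction was called as higher for all 6, with a median of 1.36, beside 19% of all genes. The counts against wild type were 5, 6, 2 and 4 genes without wild type replicate 3.

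The genes of ring modification beside CYP81F2 were mixed. Of 7 tested, 1 rose and 1 fell in pp1r3-2, 3 fell in topp4-1, none changed in topp-7m and 1 fell in the double mutant, with medians of 0.25, -0.60, 0.13 and -0.19. Over all genes tested, 10.9% rose and 8.33% fell in pp1r3-2, and 26.5% fell in topp4-1. In topp-7m 11.6% of all genes were called, and 5.47% fell in the double mutant. CYP81F4, which leads to the 1-methoxy form, had 15, 38 and 52 counts in the wild-type libraries and 1, 5 and 6 counts in topp4-1, with a log2 change of -3.19 ± 0.88 (adjusted p = 0.00654). CYP81F4 overlaps the opposite-strand gene AT4G37409, at 0 counts in all libraries, over 2140 bases. How overlapping reads were assigned is not given, so the CYP81F4 counts are uncertain. CYP81F3 changed by -1.23 ± 0.25 (0.000813). IGMT5, the methyltransferase of that branch, held 17.3, 19.8 and 35.2 CPM in wild type and 10.3, 11.0 and 10.8 CPM in topp4-1, a change of -1.17 ± 0.46 (0.0469). Its mean was lower still in the other mutants, at 9.43 CPM in topp-7m, 5.73 in pp1r3-2 and 5.65 in the double mutant. CYP81F1 had 0 counts in every library, as did the opposite-strand gene AT4G37432, which it overlaps over 1820 bases. Its count of 0 is therefore not a measure of the transcript. IGMT1 to IGMT4 are near copies whose single counts are uncertain. With wild type replicate 3 left out, 2, 2, 0 and 0 genes changed against wild type.

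Of 8 genes of glucosinolate breakdown and transport 2 rose and 3 fell in topp4-1, where 53.5% of all genes were called. In pp1r3-2 2 fell, and in topp-7m and the double mutant 1 each fell, beside 8.33%, 5.46% and 5.47% of all genes. The myrosinase genes TGG1 and TGG2, whose counts may be shared between these similar copies, changed in topp4-1 by -1.51 ± 0.11 (adjusted p = 4.81e-08) and -2.26 ± 0.18 (1.44e-07). TGG2 went from 615 ± 92.5 CPM in wild type to 128 ± 11.7 CPM. The glucosinolate transporter gene GTR1 changed by -1.08 ± 0.14 (1.04e-05). NSP5, a nitrile specifier gene, rose from 96.5 ± 3.90 to 229 ± 8.77 CPM, a change of 1.24 ± 0.13 (1.99e-06), and the other gene that rose, named after its value was seen, was the transporter gene GTR2 (1.01). PEN2 and PEN3, the myrosinase and the exporter of the leaf surface defence, were not called in any comparison. Compared with topp4-1, 3 of the 8 genes were higher and 2 lower in the double mutant, beside 21.4% and 21.9% of all genes. Fitted without wild type replicate 3, the numbers of changed genes against wild type were 0, 5, 1 and 0.

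Of 5 other genes of oxime-derived defence that were tested, 3 rose in topp4-1, beside 27% of all genes (53.5% called in either direction). Compared with topp4-1, 3 of the 5 were lower in the double mutant, beside 21.9% of all genes (43.3% in either direction). With 5 genes these counts say little about the list, and they were not tested against those shares. In pp1r3-2 1 fell, beside 8.33% of all genes, a call lost without wild type replicate 3. None changed against wild type in topp-7m and the double mutant, where 11.6% and 13.1% of all genes were called. Beside CYP71A12, CYP82C2, which makes the cyanogenic 4-hydroxyindole-3-carbonyl nitrile, held 8.15, 13.0 and 7.92 CPM in wild type and 51.7, 30.8 and 46.1 CPM in topp4-1. Its change was 2.14 ± 0.45 (adjusted p = 0.00155) in topp4-1, and the double mutant differed from topp4-1 by -2.86 ± 0.47 (0.000362). The double mutant differed from topp4-1 in CYP71A12 by -0.97 ± 0.25 (0.00663). The interaction was -0.98 ± 0.35 for CYP71A12 (0.0416).

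Of 8 upstream regulators 5 rose and 2 fell in topp4-1, beside 53.5% of all genes called there. None was called in the other 3 mutants against wild type, where 11.6% to 19.3% of all genes were called. Without wild type replicate 3 the counts were 1 in pp1r3-2, 6 in topp4-1 and 0 in the other lines. WRKY33, the activator of PAD3 and CYP71A13 during infection, held 233, 202 and 204 CPM in wild type and 351, 343 and 339 CPM in topp4-1, a change of 0.69 ± 0.16 (adjusted p = 0.00158). The double mutant differed from topp4-1 by -0.57 ± 0.16 (0.00753) and topp-7m by -0.46 ± 0.16 (0.0299). In topp4-1 the WRKY33 estimate was above 0 while those of PAD3 and CYP71A13 were below 0. CYP71A13 was not called there (edgeR, adjusted p = 0.0693), and the PAD3 call (0.0482) was lost in 5 of 12 alternatives. CYP71A12, the near copy of CYP71A13, rose in topp4-1. A link between WRKY33 and these genes was not tested.

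**Figure D5:**
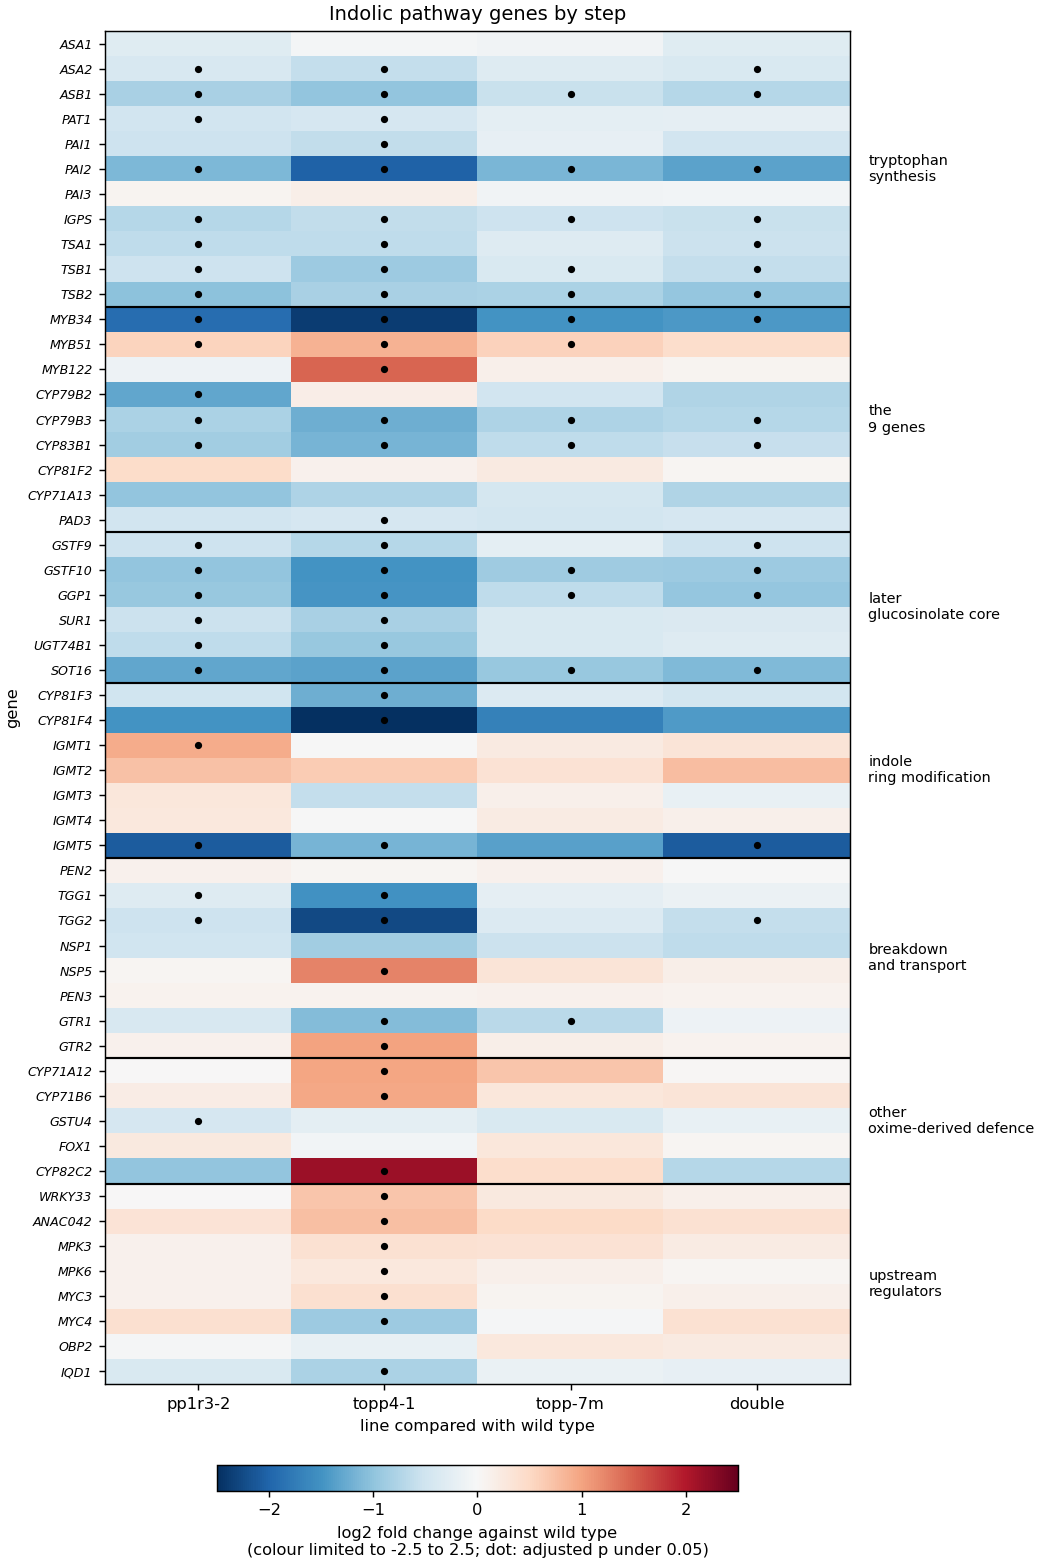
Log2 fold change against wild type (colour) for the tested genes of each pathway step (rows) in the 4 mutant lines (columns); dots mark an adjusted p under 0.05. The rows of tryptophan synthesis and of the later core are mostly blue in all lines, and the lower blocks carry most of their dots in topp4-1.

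Across the 15 libraries, which share the 5 genotypes, the log2 levels of MYB34 and MYB51 had a Pearson correlation of -0.88, given as a description. That of CYP79B3 and CYP83B1 was 0.83, that of CYP71A13 and PAD3 0.81 and that of MYB34 and CYP79B3 0.79. CYP79B2 and CYP79B3 had a correlation of 0.145. Over all tested genes, the most alike in this measure to MYB34 were CPN10 (0.950), NUDT1 (0.945) and MYB32 (0.944). Genes near MYB51 were AT1G27100 (0.965) and pEARLI4 (0.964), and the nearest to MYB122 were EDA5 (0.960), MIZ1 (0.947) and ANAC087 (0.945). CYP79B2 was most like GPT2 (0.970), PFK7 (0.930) and AT5G39570 (0.917), and CYP79B3 most like AT1G57610 (0.925), ATS3A (0.918) and ARF2-A (0.915). The nearest to CYP83B1 were VHA-D (0.947), ERDJ2A (0.925) and AT4G26910 (0.925). CYP81F2 was nearest to KCS12 (0.841), the ring methyltransferase gene IGMT1 (0.830) and the mitochondrial gene ATMG00090 (0.819). CYP71A13 was nearest to WVD2 (0.871), AT5G53420 (0.867) and AT3G07890 (0.857), and PAD3 to DHQS (0.908), HST (0.904) and TMN11 (0.895). None of these genes was another of the 9.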

How the data were processed

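The authors deposited whole-number read counts per gene for 15 leaf libraries (poly-A selected, NEBNext Ultra kit, per the labels' protocols), with gene model lengths. HISAT2 2.0.5 is the aligner named per the submitters' processing notes. The sources used here do not give the counter, its strand setting or the genome build. Gene starts and ends matched TAIR10.1 for 32531 of 32547 matched identifiers (99.95%), so that assembly was used for coordinates. Replicates differed by more than sampling noise (chi-square per gene of 5.67 to 26.3). Genes were filtered with filterByExpr (minimum count 10, minimum total 15) and scaled by TMM. All 15 libraries entered a single quasi-likelihood fit with genotype as the factor (edgeR 4.0.16, robust, F test, R 4.3.3), with Benjamini-Hochberg adjustment over 20037 genes and a threshold of 0.05. CPM per kilobase divides by the authors' gene length. For CYP71A13 this length, 1494, equals the coding length. Correlations used log2 CPM with a prior count of 2. Alignments of coding sequences used Biopython 1.88. The fit was also run on simulated counts in which few genes changed. That run does not bear on comparisons in which a large share of genes was called. Alternatives were RLE factors, other filters, DESeq2 1.42.0, only the libraries compared, a replicate block, a log2 change of at least 1, and leaving out each library. List counts that leave out wild type replicate 3 were added after seeing the data. The members, lists and tests were chosen with earlier results of these data known. Named genes were the 9 members, list genes called with a log2 change of at least 1 in topp4-1 or topp-7m (up to 12 in each), CYP71A12, WRKY33, and the 3 genes most correlated with each member, of which 1 is not reported here.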

Additional observations from a re-analysis of the deposited data

Results flagged for a closer look

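For 5 of the 9 genes the effect of topp4-1 differed between pp1r3-2 plants and otherwise wild-type plants, by edgeR's test of the interaction itself with adjustment over all genes. The difference, as the effect in pp1r3-2 minus that in wild type on the log2 scale, was 2.84 for MYB34, 1.46 for CYP83B1 and 1.3 for CYP79B3. It was -0.99 for MYB51 and -1.27 for MYB122. Each of these 5 calls held in the 18 alternatives that kept the same threshold, and that of MYB51 was lost when a log2 change of at least 1 was also required. Of all genes tested, 38.3% had a called interaction.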

How the results depend on the processing

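The number of the 9 genes called depended on the settings as follows. Requiring a log2 change of at least 1 gave 2 in place of 5 in pp1r3-2, 1 in place of 4 in topp-7m, 1 in place of 3 in the double mutant, 1 in place of 4 for the double mutant against topp4-1 and 1 in place of 2 for topp-7m against topp4-1. Fitting only the libraries compared gave 2 in pp1r3-2 and 5 for topp-7m against topp4-1. In the double mutant it replaced the genes called. MYB34 (adjusted p = 0.0525), CYP79B3 (0.132) and CYP83B1 (0.0762) were lost, while CYP79B2 (0.0205) and CYP71A13 (0.011) were gained. Leaving out each library in turn gave 4 to 6 members called in pp1r3-2. It gave 5 to 6 for topp4-1, 0 to 4 for topp-7m, 0 to 4 for the double mutant, 3 to 5 and 1 to 3 for the double mutant and topp-7m against topp4-1, 0 against pp1r3-2 and 5 to 6 for the interaction. None was called in topp-7m without wild type replicate 3 or topp-7m replicate 2, or in the double mutant without wild type replicate 3. The calls of MYB34, MYB51, MYB122, CYP79B3 and CYP83B1 in topp4-1, and of MYB34 and CYP83B1 in pp1r3-2, held in the 12 alternatives that kept the same threshold, while requiring a log2 change of at least 1 removed MYB51 in topp4-1 and CYP83B1 in pp1r3-2. The cause of the changes was not tested.

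Estimates that changed sign were all of genes not called, with 1 library left out. Over the libraries left out, MYB122 ran from -0.46 to 0.045 in pp1r3-2 and from -0.13 to 0.19 in the double mutant, and CYP81F2 from -0.075 to 0.19 in topp4-1 and from -0.13 to 0.15 in the double mutant. For the double mutant against topp4-1, PAD3 ran from -0.11 to 0.11, CYP81F2 from -0.23 to 0.046 and CYP71A13 from -0.018 to 0.098. Against pp1r3-2, CYP71A13 ran from -0.15 to 0.67, PAD3 from -0.11 to 0.17, MYB51 from -0.23 to 0.052 and MYB122 from -0.0023 to 0.53. For topp-7m against topp4-1, PAD3 ran from -0.19 to 0.082 and CYP81F2 from -0.096 to 0.25.

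List counts without wild type replicate 3 went from 2 to 0 for breakdown and transport, 1 to 0 for other oxime-derived defence and 0 to 1 for upstream regulators in pp1r3-2, and from 1 to 0 for ring modification and for breakdown and transport in the double mutant.

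Replicate numbers occur in every genotype. Deviations of same-numbered libraries had a median correlation of 0.0074 over 30 pairs (-0.34 to 0.51), against -0.0011 over 60 other pairs (-0.53 to 0.42). Above 0.1 were 9 and 18 of these pairs. Double mutant replicate 3 had 0.51 with topp-7m replicate 3, 0.45 with pp1r3-2 replicate 3 and 0.42 with wild type replicate 1. It had -0.32 with wild type replicate 3 and -0.53 with topp-7m replicate 1. Whether libraries share a factor that the labels do not give was not tested. With the replicate block the counts of members called were 7 in pp1r3-2, 6 in topp4-1, 4 in topp-7m and 4 in the double mutant. They were 5 and 0 for the double mutant against topp4-1 and pp1r3-2, 3 for topp-7m against topp4-1 and 6 for the interaction. Over all genes the block gave 4038 in pp1r3-2, 10902 in topp4-1, 2438 in topp-7m and 2842 in the double mutant. It gave 8827 and 8 for the double mutant against topp4-1 and pp1r3-2, 7753 for topp-7m against topp4-1 and 7873 for the interaction. CYP81F2 was among the members gained, in pp1r3-2 (0.47, adjusted p = 0.0136) and in the interaction (-0.53, 0.0219).

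Over all genes called, requiring a log2 change of at least 1 gave 780 in place of 3862 in pp1r3-2, 3821 in place of 10726 in topp4-1, 517 in place of 2334 in topp-7m and 546 in place of 2631 in the double mutant. It gave 2829 in place of 8676 and 4 in place of 7 for the double mutant against topp4-1 and pp1r3-2, 2398 in place of 7571 for topp-7m against topp4-1 and 3398 in place of 7679 for the interaction. Fitting only the libraries compared gave 1342 in the double mutant and 3 for it against pp1r3-2, where DESeq2 gave 59. Leaving out a library gave as few as 2388, 1349 and 1379 in pp1r3-2, topp-7m and the double mutant, each without wild type replicate 3, and 2 to 12 for the double mutant against pp1r3-2. MYB34 and MYB122, at 28 to 265 and 34 to 174 counts per library, were the least deeply sampled of the 9.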

Other observations

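The regulator gene MYC2, whose product works with the MYB factors, had 0 counts in all 15 libraries. It overlaps the opposite-strand gene AT1G32630 over 3241 bases, and that gene had 39 to 68 counts per library. How overlapping reads were assigned is not given in the sources used here, so a count of 0 is not a measure of the MYC2 transcript.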
